A study of Mus musculus with 12 samples.

Results

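The 9 genes Syk, Card9, Bcl10, Malt1, Plcg2, Prkcd, Vav1, Nfatc1 and Src encode the proteins that carry a signal from the β-glucan receptor Dectin-1 to the nucleus. They were read by symbol from a table of 15170 genes, and all 9 were found. The tumors were grown from MC38, a mouse colon adenocarcinoma line. BG136 tumors came from mice given BG136, a soluble β-1,3/1,6-glucan, by intravenous injection (6 libraries), and vehicle tumors from mice given vehicle by the same route (6 libraries). Every sample, vehicle included, carries the label wild type, while dose, schedule, age and number of mice are not known here. The BG136 libraries numbered 7 and 9 differed by less than sampling noise, with a chi-square of 0.285 per gene against 7.88 to 57.4 in the other 29 pairs within groups. They were counted as 1 sample by their mean, called replicate 7-9. This left 5 BG136 samples (replicates 1, 2, 4, 6 and 7-9) and 6 vehicle samples (replicates 1, 2, 3, 7, 11 and 12).

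Dectin-1 is a C-type lectin of macrophages, dendritic cells and neutrophils that binds β-glucans of fungi and algae. When it clusters, kinases of the Src family phosphorylate its cytoplasmic tail and the kinase Syk docks there. Syk activates phospholipase C-γ2 (Plcg2) and the guanine nucleotide exchange factor Vav1. Protein kinase C-δ (Prkcd) then phosphorylates the adaptor Card9, which assembles with Bcl10 and the protease Malt1 to switch on NF-κB, while calcium released through phospholipase C-γ2 drives nuclear entry of NFAT factors such as Nfatc1. Most of these proteins are regulated by phosphorylation and assembly, which transcript levels do not report.

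Levels are FPKM, fragments per kilobase of transcript scaled to library size. A library held 14828786 to 18125931 reads, apart from the pair behind replicate 7-9, which held 33231037 and 32956232. Card9 rested on the fewest reads, 169 to 474 in a library, and Src on the most, 2830 to 6917. The counting error was therefore at most 7.69% for Card9 and at most 1.88% for Src. A tumor block mixes cancer and host cells, so fewer cells of a type and less RNA per cell cannot be told apart. Epithelial markers, of which 7 were read, summed to 3.13 to 33.4 FPKM in BG136 samples and 13.0 to 30.1 FPKM in vehicle samples, with Krt20 and Vil1 under 1 FPKM in every sample. Of 5 epithelial markers tested 4 were lower in BG136 samples, and Epcam had the lowest p, at 0.637 ± 0.530 FPKM in BG136 samples and 1.27 ± 0.47 FPKM in vehicle samples (unadjusted p = 0.0322 and adjusted p = 0.978 by limma).

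The members ranged widely in level, with the kinases Src and Prkcd at the top and Syk at the bottom. Over all 11 samples Src averaged 44.4 ± 2.0 FPKM (SD, n = 11) and Prkcd 37.8 ± 6.3 FPKM, followed by Bcl10 at 24.5 ± 2.2 FPKM, Plcg2 at 18.7 ± 1.7 FPKM and Vav1 at 11.4 ± 1.9 FPKM. Nfatc1 averaged 6.52 ± 1.00 FPKM, Card9 6.31 ± 1.04 FPKM, Malt1 5.71 ± 1.10 FPKM and Syk 4.78 ± 0.90 FPKM. Among the mean levels of all listed genes, Src lay at percentile 89.3 and Syk at 43.9. Neighbours in this order were compared within samples by an exact two-sided sign-flip permutation test on log2(FPKM + 1), with Benjamini-Hochberg adjustment over the 8 pairs. The order was set from these same samples. The test thus shows only that a gap repeats across samples, and a bias of a gene's FPKM shared by all samples would repeat too. Of the 8 pairs 6 differed beyond the spread. Src was above Prkcd in 10 of 11 samples (adjusted exact permutation p = 0.0156, and 0.0625 in the 9 samples without vehicle replicates 11 and 12, where 5 pairs passed), and each of the 5 other pairs that differed kept its order in 11 of 11 samples (adjusted exact permutation p = 0.00156, from an unadjusted p of 9.77e-04, the smallest this test can give). Nfatc1 and Card9 did not separate (Nfatc1 higher in 7 of 11 samples, adjusted exact permutation p = 0.632), nor did Card9 and Malt1 (Card9 higher in 8 of 11 samples, adjusted exact permutation p = 0.329).

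**Figure D1:**
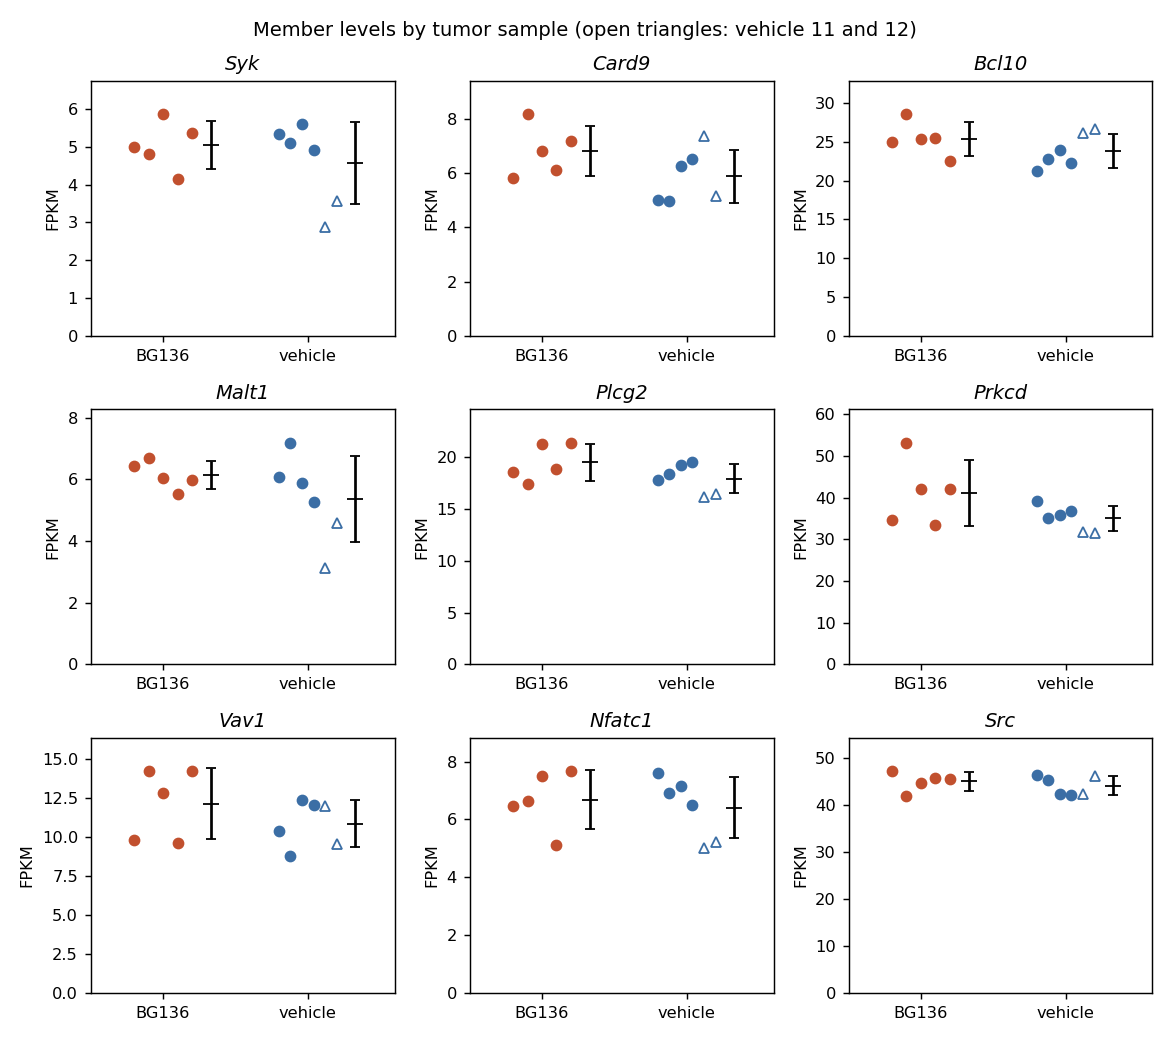
FPKM of each of the 9 members (y axis of each panel, starting at 0) in the 5 BG136 and 6 vehicle samples; points are samples, open triangles are vehicle replicates 11 and 12, and bars are the mean ± SD. The BG136 and vehicle samples overlap for every member, and vehicle replicates 11 and 12 are the lowest vehicle samples for Syk, Malt1, Plcg2, Prkcd and Nfatc1.

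No member's difference between BG136 and vehicle tumors passed the test against the spread between samples. Differences were tested on log2(FPKM + 1) with limma's moderated linear model over the 11356 genes with at least 1 FPKM in at least 6 samples, two-sided, with Benjamini-Hochberg adjustment over all of them and a threshold of 0.05. All 9 members were among the genes tested. None had an adjusted p under 0.05 (0.0% of all genes tested did), each adjusted p being 0.978. None had an unadjusted p under 0.05 (2.05% of all genes did). With voom on reads recovered from the FPKM, 0 members passed and 0 had an unadjusted p under 0.05 (254 of all genes tested did). The fitted difference was above 0 for all 9 members, against 57.4% of all genes tested, with a median of 0.14 for the members and 0.018 for all genes. Without vehicle replicates 11 and 12, 7 of 9 members were above 0 (55.0% of all genes tested were), with a median of 0.052 (0.0092 for all genes). Those 9 values are not independent of each other, since members varied together across tumors. For 0 of the 9 members did the BG136 and vehicle samples separate without overlap, which 0.229% of all genes tested did.

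At the head of the cascade, Src, the founding member of its kinase family, varied least. Src was at 47.1, 41.8, 44.6, 45.7 and 45.4 FPKM in BG136 replicates 1, 2, 4, 6 and 7-9, against 42.1 to 46.3 FPKM with a median of 43.7 FPKM in vehicle samples. The groups overlapped almost fully, with BG136 replicate 2 below every vehicle sample and BG136 replicate 1 above every one. The log2 difference of Src was 0.029 (95% interval -0.089 to 0.15), and 0.012 (without BG136 replicate 1) to 0.054 (without BG136 replicate 2) with a sample left out.

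Syk, the tyrosine kinase that docks on the phosphorylated receptor, was at 5.01, 4.82, 5.86, 4.16 and 5.37 FPKM in BG136 samples in the same order. In vehicle samples Syk ranged from 2.87 to 5.60 FPKM with a median of 5.02 FPKM. The vehicle samples split into 4 at 4.92 FPKM or more and vehicle replicates 11 and 12 at 2.87 and 3.58 FPKM, and only BG136 replicate 4 lay above all of them. The log2 difference of Syk was 0.14 (95% interval -0.16 to 0.43) and turned to -0.053 without vehicle replicates 11 and 12. With a sample left out it was 0.037 (without vehicle replicate 11) to 0.19 (without BG136 replicate 6), and 0.085 without vehicle replicate 12 and 0.089 without BG136 replicate 4.

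Downstream of Syk, Plcg2, which makes the second messengers that release calcium, was at 18.6, 17.4, 21.3, 18.9 and 21.4 FPKM in BG136 samples, against 16.2 to 19.6 FPKM with a median of 18.1 FPKM in vehicle samples. BG136 replicates 4 and 7-9 lay above every vehicle sample and the other 3 lay among them. The log2 difference of Plcg2 was 0.11 (95% interval -0.046 to 0.28), and 0.052 without vehicle replicates 11 and 12. Vav1, an exchange factor of blood cells, was at 9.82, 14.2, 12.8, 9.61 and 14.2 FPKM in BG136 samples, against 8.75 to 12.4 FPKM with a median of 11.2 FPKM in vehicle samples. BG136 replicates 2, 4 and 7-9 were above all vehicle samples, while BG136 replicates 1 and 6 were below the vehicle median. The log2 difference of Vav1 was 0.14 (95% interval -0.12 to 0.40). It was 0.084 without BG136 replicate 2, 0.084 without BG136 replicate 7-9 and 0.088 without vehicle replicate 2, and 0.21 without BG136 replicate 6.

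Prkcd, the kinase that phosphorylates Card9, had the lowest unadjusted p of the 9 members. Prkcd was at 34.6, 53.2, 42.2, 33.5 and 42.1 FPKM in BG136 samples, against 31.5 to 39.1 FPKM with a median of 35.5 FPKM in vehicle samples. The same BG136 replicates 2, 4 and 7-9 were above all vehicle samples, and replicates 1 and 6 were again below the vehicle median. The log2 difference of Prkcd was 0.21 (95% interval -0.026 to 0.44, unadjusted p = 0.0766 and adjusted p = 0.978 by limma), and 0.14 without vehicle replicates 11 and 12. Without BG136 replicate 2, its highest sample, it was 0.11. With all 12 libraries counted separately, Prkcd had an unadjusted p of 0.0463 and an adjusted p of 0.914 by limma. In that setting 441 of all genes tested had an unadjusted p under 0.05. The base means in the authors' deposited table also count the BG136 libraries numbered 7 and 9 separately. There Prkcd has a fold change of 1.16, a p-value of 0.0356 and a q-value of 0.941. It is the 1 member with a p-value under 0.05 in the authors' deposited table, where 5.05% of genes have one, and 0 members have a q-value under 0.05, where 0.0593% of genes do.

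The members of the Card9, Bcl10 and Malt1 complex differed in where their samples lay. Card9, the adaptor that links Prkcd to NF-κB in myeloid cells, was at 5.84, 8.17, 6.83, 6.11 and 7.19 FPKM in BG136 samples, against 4.96 to 7.36 FPKM with a median of 5.72 FPKM in vehicle samples. All 5 BG136 samples were above the vehicle median, but only replicate 2 was above vehicle replicate 11, the highest vehicle sample. The log2 difference of Card9 was 0.19 (95% interval -0.043 to 0.42, unadjusted p = 0.102 by limma), and 0.23 without vehicle replicates 11 and 12. With a sample left out it was 0.13 (without BG136 replicate 2, its highest sample) to 0.25 (without vehicle replicate 11). It was 0.15 without vehicle replicate 1 and 0.15 without vehicle replicate 2.

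Bcl10, the filament-forming partner of Card9, was at 25.0, 28.5, 25.4, 25.5 and 22.5 FPKM in BG136 samples, against 21.2 to 26.7 FPKM with a median of 23.4 FPKM in vehicle samples. BG136 replicate 2 was above every vehicle sample and the other 4 BG136 samples lay within the vehicle range, of which vehicle replicates 11 and 12 formed the upper end. The log2 difference was 0.088 (95% interval -0.077 to 0.25) with them and 0.16 without them (unadjusted p = 0.0403 and adjusted p = 0.99998 by limma), and 0.046 without BG136 replicate 2. Malt1, a protease and scaffold, was at 6.45, 6.69, 6.04, 5.53 and 5.98 FPKM in BG136 samples, against 3.12 to 7.19 FPKM with a median of 5.57 FPKM in vehicle samples. The BG136 samples lay within the vehicle range, and the log2 difference of 0.20 (95% interval -0.11 to 0.50) was 0.012 without vehicle replicates 11 and 12 and 0.080 without vehicle replicate 11.

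Nfatc1, the calcium-driven transcription factor at the end of the other branch, was at 6.46, 6.64, 7.50, 5.10 and 7.66 FPKM in BG136 samples. In vehicle samples Nfatc1 ranged from 5.01 to 7.61 FPKM with a median of 6.71 FPKM. The ranges nearly coincided, and the log2 difference was 0.054 (95% interval -0.20 to 0.31), turning to -0.077 without vehicle replicates 11 and 12. With a sample left out it was -0.0033 (without vehicle replicate 11) to 0.13 (without BG136 replicate 6), and at most 0.014 without BG136 replicate 4, BG136 replicate 7-9 or vehicle replicate 12.

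**Figure D2:**
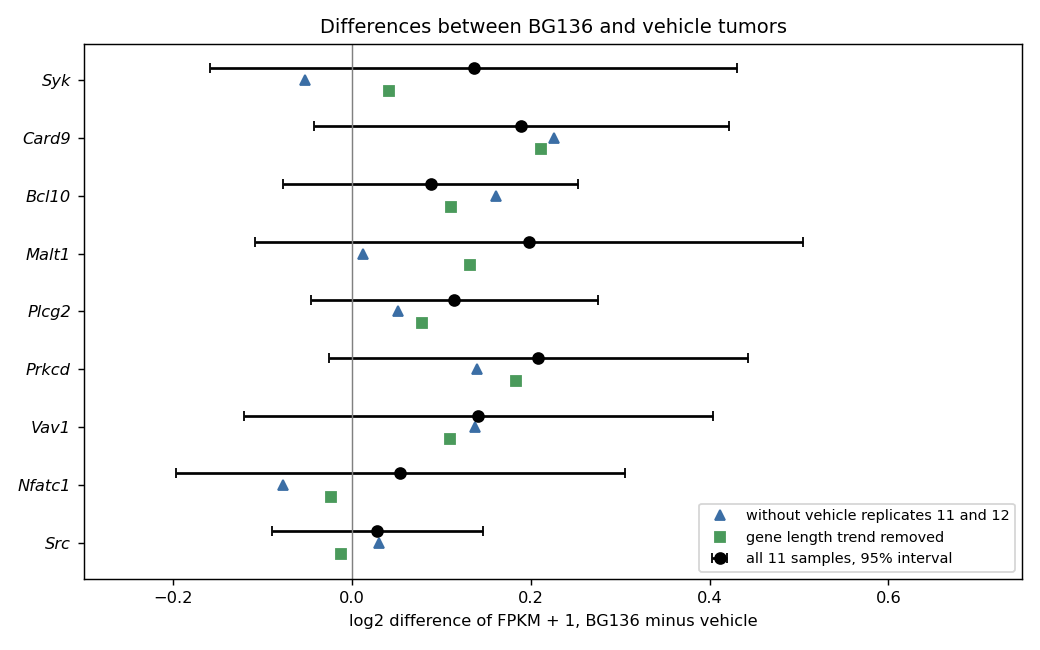
Log2 difference of FPKM + 1, BG136 minus vehicle (x axis), for each member (y axis): all 11 samples with 95% intervals (circles), without vehicle replicates 11 and 12 (triangles) and with the gene length trend removed (squares). Every interval includes 0; Syk and Nfatc1 fall below 0 without the 2 vehicle samples, while Card9 and Bcl10 are larger without them.

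Vehicle replicates 11 and 12 stood apart for the members in a way that followed transcript length. The length that FPKM and reads together imply placed Syk at percentile 94.0 of all genes, Nfatc1 at 86.0, Malt1 at 80.0, Card9 at 22.5 and Bcl10 at 22.0. Mean FPKM in vehicle replicates 11 and 12 over that in the other 4 vehicle samples was 0.615 for Syk, 0.632 for Malt1 and 0.727 for Nfatc1. The ratio was 0.870 for Plcg2, 0.862 for Prkcd, 0.989 for Vav1 and 1.00 for Src, members of middle length, and 1.10 for Card9 and 1.17 for Bcl10. Over all genes tested, a sample's deviation from the mean of the other samples had a Spearman rho with log2 length of -0.644 in vehicle replicate 11 and -0.566 in vehicle replicate 12, and of -0.297 in BG136 replicate 2. It ran from 0.202 to 0.460 in the other 4 BG136 samples and from -0.009 to 0.434 in the other 4 vehicle samples. These are correlations across genes, which are not independent replicates. The part of length in the differences between groups was not tested beyond a refit in which each sample's trend on length was removed, an alternative chosen after seeing the data. In that refit 7 of 9 members were above 0 (48.3% of all genes were), Card9 kept a log2 difference of 0.21 (unadjusted p = 0.0213 and adjusted p = 0.999 by limma), Syk had 0.042, and Nfatc1 and Src had -0.023 and -0.012.

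**Figure D3:**
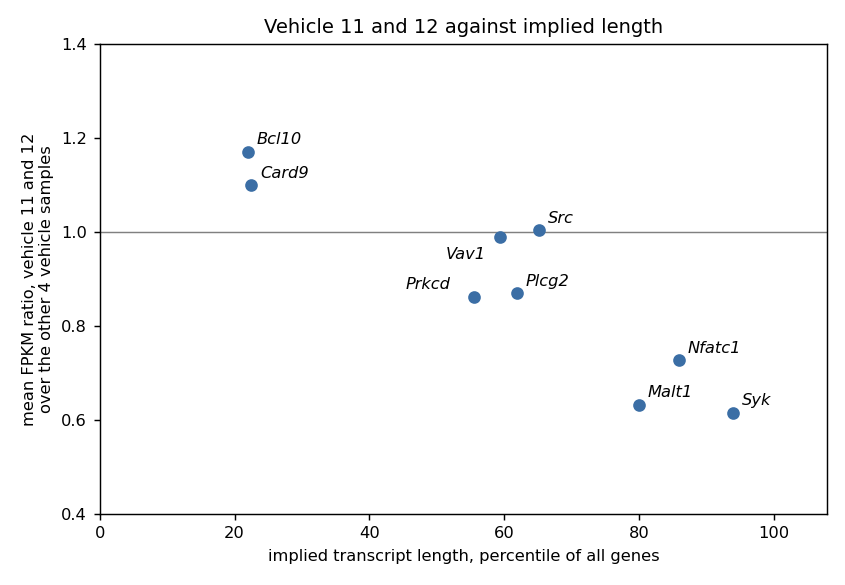
Mean FPKM in vehicle replicates 11 and 12 over mean FPKM in the other 4 vehicle samples (y axis) against the percentile of implied transcript length among all genes (x axis), with 1 point for each member. The longest members, Syk, Nfatc1 and Malt1, are at 0.615 to 0.727, and the shortest, Card9 and Bcl10, are above 1.

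Across tumors, Syk varied with Nfatc1 and Card9 varied with Vav1. Over 11 samples, 36 pairs of members were correlated on log2(FPKM + 1), with two-sided permutation tests (100000 resamples) and Benjamini-Hochberg adjustment over the 36. Of these, 4 passed by Pearson's r and 10 had an unadjusted p under 0.05. Syk and Nfatc1 gave the highest value (Pearson r = 0.91, permutation p = 5.00e-05, adjusted p = 0.0018; Spearman rho = 0.88, permutation p = 0.00068, adjusted p = 0.0245), with r = 0.92 without vehicle replicates 11 and 12, the 2 samples farthest from the median of Syk, and r = 0.96 within vehicle. The value within vehicle includes replicates 11 and 12, the lowest vehicle samples for both genes (Syk 2.87 and 3.58 FPKM, Nfatc1 5.01 and 5.23 FPKM). Card9 and Vav1 came next (Pearson r = 0.87, permutation p = 0.00079, adjusted p = 0.0142; Spearman rho = 0.82, permutation p = 0.0036, adjusted p = 0.0648). For Card9 and Vav1 r was 0.78 without BG136 replicate 2 and vehicle replicate 2, the samples farthest from the median of Card9, 0.87 without vehicle replicates 11 and 12, and 0.86 within vehicle. Syk and Card9 did not pass (Pearson r = -0.08, permutation p = 0.82, adjusted p = 0.894; Spearman rho = -0.091, permutation p = 0.795, adjusted p = 0.927). With group means removed, the 4 pairs that passed were placed among the r of all genes tested. By r with Syk, Nfatc1 lay at percentile 99.1, Malt1 at 94.9 and Plcg2 at 88.5. By r with Card9, Vav1 lay at percentile 98.6. Genes other than the members thus had r as high with Syk or Card9.

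The other relations of Syk that passed were weaker without vehicle replicates 11 and 12, and in most settings tried they did not pass. Syk with Malt1 gave r = 0.85 (permutation p = 0.00402, adjusted p = 0.0472; Spearman rho = 0.47, permutation p = 0.147, adjusted p = 0.294) and Syk with Plcg2 gave r = 0.77 (permutation p = 0.00525, adjusted p = 0.0472; Spearman rho = 0.72, permutation p = 0.0162, adjusted p = 0.116). Without vehicle replicates 11 and 12, the 2 samples farthest from the median of Syk, r was 0.17 for Malt1 and 0.46 for Plcg2. With a setting changed, Syk with Malt1 passed in 5 settings and not in 11. Syk with Plcg2 passed in 4 and not in 12. Card9 ran opposite to Src (Pearson r = -0.66, permutation p = 0.0314, adjusted p = 0.141; Spearman rho = -0.66, permutation p = 0.0311, adjusted p = 0.187), and r was -0.58 without BG136 replicate 2 and vehicle replicate 2. With group means subtracted Card9 with Src passed (r = -0.91, permutation test, adjusted p = 0.00486), Syk with Plcg2 did not (r = 0.75, permutation test, adjusted p = 0.0529), and r within vehicle was -0.92 for Card9 with Src. With the length trend removed, Syk and Nfatc1 still passed (r = 0.86, permutation test, adjusted p = 0.00864), whereas Card9 and Vav1 did not (r = 0.80, permutation test, adjusted p = 0.0612). The BG136 samples, 5 in number, were too few for a correlation of their own.

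**Figure D4:**
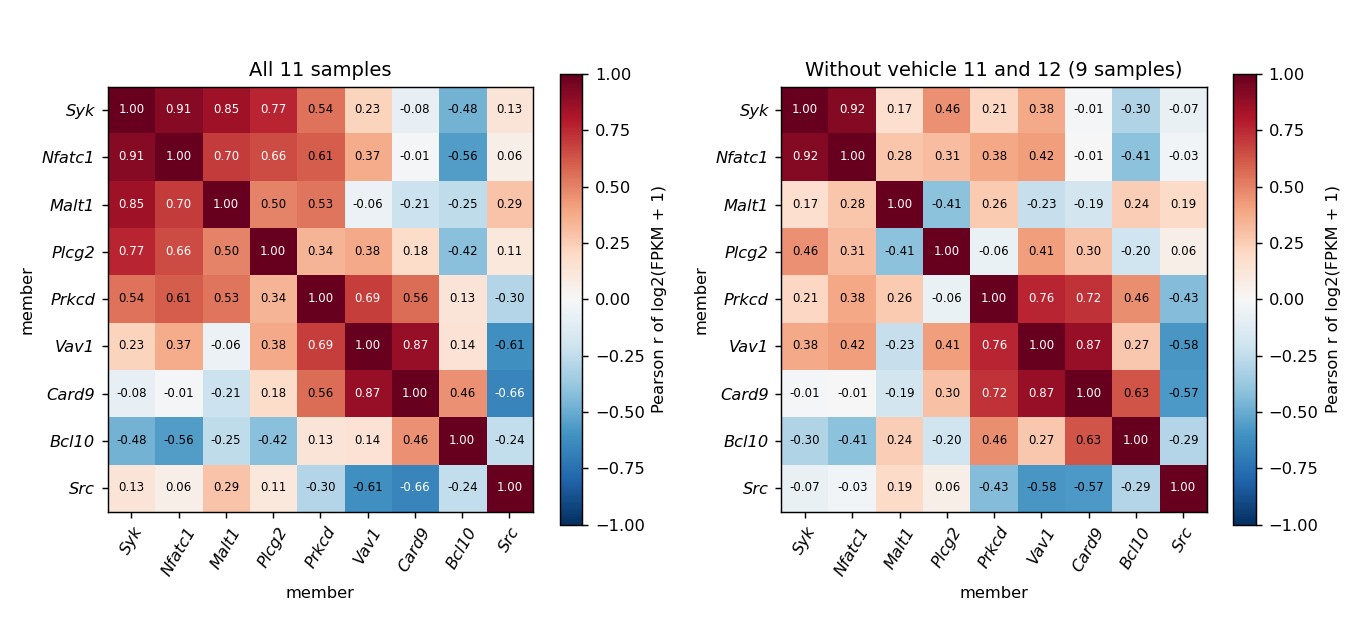
Pearson r of log2(FPKM + 1) between members (rows and columns), over all 11 samples (left) and over the 9 samples without vehicle replicates 11 and 12 (right). Syk and Nfatc1 have r = 0.91 and 0.92, Card9 and Vav1 have r = 0.87 in both panels, and Syk and Malt1 have r = 0.85 and 0.17.

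Promoters are shown for Card9 and Vav1, a pair that varied together, and for Syk, which has 2 starts in the table used. They come from RefSeq (GRCm38.p6, not the build of the table), run from 250 bases before to 50 bases after the start, and matched 7 of the 9 members by symbol, with 9 promoters. Capitals mark GAGGAA, the purine-rich core of sites for the myeloid factor PU.1, searched on both strands.
Card9 promoter (GRCm38.p6 chr2:26360860-26361159, minus strand): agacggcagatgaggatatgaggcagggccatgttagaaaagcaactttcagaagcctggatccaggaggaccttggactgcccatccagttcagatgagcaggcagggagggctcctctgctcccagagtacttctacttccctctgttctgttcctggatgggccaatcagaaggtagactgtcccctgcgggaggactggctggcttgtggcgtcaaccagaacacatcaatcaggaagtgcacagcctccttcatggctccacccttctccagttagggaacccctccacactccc
Vav1 promoter (GRCm38.p6 chr17:57278850-57279149, plus strand): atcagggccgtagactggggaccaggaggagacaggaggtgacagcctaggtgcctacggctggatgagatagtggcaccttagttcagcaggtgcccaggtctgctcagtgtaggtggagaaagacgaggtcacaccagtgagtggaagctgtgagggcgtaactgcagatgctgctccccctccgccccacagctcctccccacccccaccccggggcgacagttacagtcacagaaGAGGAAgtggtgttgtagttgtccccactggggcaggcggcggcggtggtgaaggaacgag
Syk promoter, upstream start (GRCm38.p6 chr13:52583187-52583486, plus strand): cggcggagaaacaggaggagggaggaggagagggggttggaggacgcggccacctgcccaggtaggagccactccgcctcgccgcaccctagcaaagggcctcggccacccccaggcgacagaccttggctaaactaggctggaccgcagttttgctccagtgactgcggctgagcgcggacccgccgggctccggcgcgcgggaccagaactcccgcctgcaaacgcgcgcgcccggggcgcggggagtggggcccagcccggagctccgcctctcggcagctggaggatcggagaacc
Syk promoter, downstream start (GRCm38.p6 chr13:52596632-52596931, plus strand): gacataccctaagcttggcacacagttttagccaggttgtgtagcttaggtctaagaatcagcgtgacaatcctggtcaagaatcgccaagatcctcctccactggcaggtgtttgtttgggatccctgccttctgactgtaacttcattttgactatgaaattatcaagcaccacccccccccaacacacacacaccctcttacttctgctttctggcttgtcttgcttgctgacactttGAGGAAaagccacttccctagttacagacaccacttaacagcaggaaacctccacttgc
GAGGAA stands 11 bases before the start of Vav1 and 9 bases before the downstream start of Syk, and it is not in the windows of Card9 or of the upstream start of Syk. Of the 9 member promoters 3 hold it, or 33.3%, against 28.3% of all 32851 promoters in the table. A match is a description of these letters only.

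Vav1 had the 2 highest correlations with leukocyte markers among the members, and neither passed the adjustment by Pearson's r. Each score was the mean, over the markers that passed the filter on low values, of log2(FPKM + 1) minus that marker's mean over samples. Of 27 relations (9 members, 3 scores), 0 passed by Pearson's r after Benjamini-Hochberg adjustment over the 27, 5 had an unadjusted permutation p under 0.05, and 3 passed by Spearman's rho. Vav1 had r = 0.76 with the T cell score (permutation p = 0.00298, adjusted p = 0.079; Spearman rho = 0.84, permutation p = 0.00229, adjusted p = 0.0309), with r = 0.86 without BG136 replicates 2 and 6, the farthest samples, and 0.84 within vehicle. With the monocyte and macrophage score Vav1 had r = 0.79 (permutation p = 0.00585, adjusted p = 0.079; Spearman rho = 0.82, permutation p = 0.00361, adjusted p = 0.0325), with r = 0.70 without BG136 replicates 6 and 7-9 and 0.80 within vehicle. With the length trend removed, Vav1 had r = 0.35 with the monocyte and macrophage score (permutation test, adjusted p = 0.501) and r = 0.75 with the T cell score (permutation test, adjusted p = 0.0309).

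Plcg2 and Nfatc1 correlated with the monocyte and macrophage score without passing. Their r with it was 0.68 (permutation p = 0.0218, adjusted p = 0.137; Spearman rho = 0.65, permutation p = 0.0332, adjusted p = 0.128) for Plcg2 and 0.68 (permutation p = 0.0254, adjusted p = 0.137; Spearman rho = 0.68, permutation p = 0.0247, adjusted p = 0.111) for Nfatc1. Without BG136 replicates 6 and 7-9 r was 0.71 for Plcg2 and 0.50 for Nfatc1. With the length trend removed, Plcg2 passed with this score (r = 0.82, permutation test, adjusted p = 0.0221), and Nfatc1 passed with the T cell score (r = 0.90, permutation test, adjusted p = 0.0221) and not with this one (r = 0.59, permutation test, adjusted p = 0.204). Card9 ran against the neutrophil score (Pearson r = -0.71, permutation p = 0.0155, adjusted p = 0.137; Spearman rho = -0.84, permutation p = 0.00223, adjusted p = 0.0309), and r was -0.63 without BG136 replicate 1 and vehicle replicate 1 and -0.50 with the length trend removed.

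Marker sums overlapped between groups, and no marker passed by limma. The 8 monocyte and macrophage markers summed to 1074 to 1634 FPKM in BG136 samples and 1333 to 1765 FPKM in vehicle samples, with 5 markers higher and 3 lower in BG136 samples. The 6 neutrophil markers read summed to 48.4 to 85.0 FPKM in BG136 samples and 50.5 to 82.3 FPKM in vehicle samples, with Cxcr2 under 1 FPKM throughout and 1 of 5 tested higher. Most of that sum was on average Mmp9, at 38.4 ± 12.7 FPKM in BG136 samples and 41.8 ± 9.1 FPKM in vehicle samples. The 7 T cell markers read summed to 31.9 to 113 FPKM in BG136 samples and 64.5 to 97.9 FPKM in vehicle samples, with BG136 replicates 6 and 1 lowest at 31.9 and 58.3 FPKM. All 7 T cell markers had a fitted difference below 0, and all 7 lay above 0 without BG136 replicate 6. BG136 replicates 6 and 1 were also the BG136 samples in which Vav1, Prkcd and Card9 were lowest, and the part of T cell content in those values was not tested. Of the B cell markers, Ms4a1 and Pax5 were under 1 FPKM in every sample, and Cd79b was at 1.95 ± 0.72 FPKM in BG136 samples and 1.68 ± 0.37 FPKM in vehicle samples. The 4 osteoclast markers read summed to 33.9 to 55.0 FPKM in BG136 samples and 39.3 to 62.8 FPKM in vehicle samples, with Oscar under 1 FPKM throughout and both of those tested lower.

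Paralogs of the members were expressed beside them, and some were as high. Zap70, the Syk relative of T cells, was at 4.44 ± 1.79 FPKM (SD, n = 5) in BG136 samples and 4.61 ± 0.71 FPKM (SD, n = 6) in vehicle samples, and Syk was above it in 7 of 11 samples. Plcg1 was at 19.5 ± 2.8 FPKM in BG136 samples and 18.5 ± 3.0 FPKM in vehicle samples, with Plcg2 above it in 5 of 11. Nfatc3 was at 13.1 ± 1.4 FPKM in BG136 samples and 12.3 ± 2.3 FPKM in vehicle samples, above Nfatc1 in every one of the 11. Card9 exceeded its relatives Card10 and Card14 in all 11 samples, with Card10 under 1.05 FPKM and Card14 under 0.13 FPKM.

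Vav1 exceeded Vav2 and Vav3, and Prkcd exceeded each of Prkca, Prkcb, Prkce, Prkch, Prkcq, Prkcz and Prkci, in all 11 samples. Vav2 was at 9.06 ± 0.45 FPKM in BG136 samples and 8.20 ± 1.05 FPKM in vehicle samples, and Prkci at 13.4 ± 1.1 FPKM in BG136 samples and 12.4 ± 1.7 FPKM in vehicle samples. Src exceeded its relatives Lyn, Lck, Fyn, Yes1, Fgr and Blk in all 11 samples. Lyn was at 20.6 ± 2.6 FPKM in BG136 samples and 19.4 ± 1.9 FPKM in vehicle samples. The T cell kinase Lck followed at 18.7 ± 8.1 FPKM in BG136 samples and 17.7 ± 4.2 FPKM in vehicle samples, and the B cell kinase Blk was at most 0.308 FPKM.

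**Figure D5:**
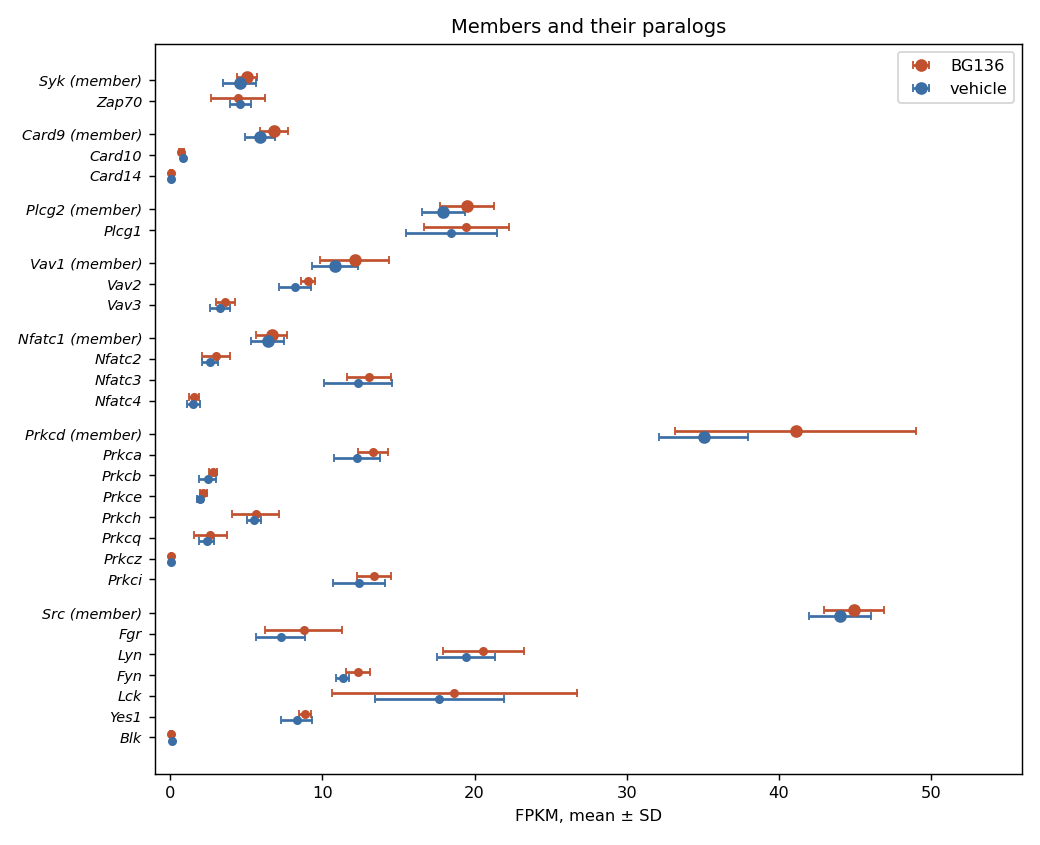
FPKM (x axis, mean ± SD over 5 BG136 and 6 vehicle samples) of 7 members, drawn as larger points, with rows of paralogs under each. Src and Prkcd are above each paralog plotted, Syk and Plcg2 are close to Zap70 and Plcg1, and Nfatc1 is below Nfatc3.

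The rest of the pathway likewise did not pass. In 8 lists of receptors, adaptors, kinases, regulators and targets there were 100 genes beside the members, of which 91 were tested, 0 passed by limma, and 1 had an unadjusted p under 0.05. Of the 91, 72 were higher and 19 lower in BG136 samples (79.1% higher, against 57.4% of all genes tested), with a median of 0.075 against 0.018 for all genes. Without vehicle replicates 11 and 12, 54 of the 91 were higher (59.3%, against 55.0% of all genes). With the length trend removed, 69 of the 91 were higher (75.8%, against 48.3% of all genes). By list, the counts higher without vehicle replicates 11 and 12 were 5 of 11 receptors and their adaptors, 8 of 10 proximal kinases, 7 of 11 adaptors around Syk and 7 of 10 negative regulators. They were 10 of 17 on the NF-κB arm, 6 of 9 Malt1 substrates, 9 of 16 on the calcium arm (median 0.0056) and 4 of 9 target genes.

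At the receptor, Clec7a, which encodes Dectin-1, was at 33.5, 92.3, 52.9, 22.7 and 40.1 FPKM in BG136 samples, against 17.6 to 54.8 FPKM in vehicle samples, where replicate 11 was lowest. The high value was BG136 replicate 2, which was also the highest sample for Card9, Bcl10 and Prkcd, and the log2 difference of 0.31 (95% interval -0.38 to 1.01) was 0.042 without it, 0.12 without vehicle replicate 11, 0.041 without vehicle replicates 11 and 12 and 0.54 without BG136 replicate 6. Of 11 receptors and adaptors tested 7 were higher and 4 lower. The lectins Clec4d (10.3 ± 4.1 FPKM in BG136 samples and 12.8 ± 3.4 FPKM in vehicle samples) and Clec4n, which encodes Dectin-2 (26.3 ± 6.8 FPKM in BG136 samples and 30.5 ± 5.1 FPKM in vehicle samples), were on the lower side, and Itgam, a chain of complement receptor 3, on the higher (33.7 ± 5.2 FPKM in BG136 samples and 29.6 ± 6.3 FPKM in vehicle samples). The log2 difference of Itgam was 0.20, and it turned to -0.0069 without vehicle replicates 11 and 12.

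Values of pathway genes are means ± SD (n = 5 BG136 and 6 vehicle samples). Counts of genes higher in BG136 samples, here and in the next paragraph, stand beside 57.4% of all genes tested. They are counts over genes, which are not independent replicates. Of the proximal kinases 9 of 10 tested were higher, with Fyn at 12.3 ± 0.78 FPKM in BG136 samples and 11.3 ± 0.44 FPKM in vehicle samples, Fgr at 8.76 ± 2.52 FPKM in BG136 samples and 7.25 ± 1.595 FPKM in vehicle samples, and Btk at 4.06 ± 0.64 FPKM in BG136 samples and 3.65 ± 0.47 FPKM in vehicle samples. Of adaptors around Syk 9 of 11 were higher, among them Fyb (19.7 ± 3.2 FPKM in BG136 samples and 16.4 ± 3.2 FPKM in vehicle samples), the ubiquitin ligase Cbl (12.6 ± 0.91 FPKM in BG136 samples and 10.97 ± 3.38 FPKM in vehicle samples) and Blnk (8.56 ± 1.20 FPKM in BG136 samples and 7.83 ± 0.86 FPKM in vehicle samples). Cbl was at 5.87 and 7.57 FPKM in vehicle replicates 11 and 12, and its log2 difference turned to -0.053 without them. Negative regulators were higher in 8 of 10. Their lowest p was that of Inpp5d, the lipid phosphatase SHIP1, at 18.1 ± 2.6 FPKM in BG136 samples and 15.4 ± 1.8 FPKM in vehicle samples (log2 difference 0.22, unadjusted p = 0.0495 and adjusted p = 0.978 by limma), followed by the NF-κB brake Tnfaip3 (10.7 ± 1.2 FPKM in BG136 samples and 9.42 ± 1.17 FPKM in vehicle samples) and the adaptor Dok1 (22.7 ± 2.5 FPKM in BG136 samples and 20.9 ± 2.1 FPKM in vehicle samples).

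On the NF-κB arm 14 of 17 genes were higher and 3 lower, led by the subunit Rel at 4.84 ± 0.27 FPKM in BG136 samples and 3.93 ± 1.01 FPKM in vehicle samples (log2 difference 0.27, unadjusted p = 0.0582 by limma), then the kinase Chuk (12.2 ± 1.2 FPKM in BG136 samples and 11.1 ± 1.1 FPKM in vehicle samples) and its scaffold Ikbkg (5.15 ± 0.32 FPKM in BG136 samples and 4.69 ± 0.49 FPKM in vehicle samples). Over the settings tried, the log2 difference of Rel ran from 0.076 to 0.34. Of Malt1 substrates 7 of 9 were higher, Tnfaip3 again, N4bp1 (9.36 ± 0.70 FPKM in BG136 samples and 8.50 ± 0.76 FPKM in vehicle samples) and the RNase Zc3h12a (11.3 ± 1.1 FPKM in BG136 samples and 10.4 ± 1.0 FPKM in vehicle samples). On the calcium arm 14 of 16 were higher, with the calcineurin subunits Ppp3ca (11.2 ± 0.74 FPKM in BG136 samples and 10.3 ± 0.56 FPKM in vehicle samples) and Ppp3cb (19.1 ± 1.1 FPKM in BG136 samples and 17.9 ± 0.50 FPKM in vehicle samples) and the calcium channel Itpr2 (3.15 ± 0.43 FPKM in BG136 samples and 2.73 ± 0.67 FPKM in vehicle samples). The log2 difference of Itpr2 was 0.16, and it ran from 0.0031 to 0.23 over the settings tried. Without vehicle replicates 11 and 12, 9 of the 16 genes of the calcium arm were higher (55.0% of all genes tested were). Of 16 target genes 9 were tested, 5 higher and 4 lower, and Il2, Il6, Il10, Il12b, Il23a, Csf2 and Csf3 lay under the filter. Il1b was at 18.6 ± 3.3 FPKM in BG136 samples and 16.5 ± 3.3 FPKM in vehicle samples, Ccl2 at 355 ± 83 FPKM in BG136 samples and 317 ± 49 FPKM in vehicle samples, and Cxcl1 at 9.44 ± 4.15 FPKM in BG136 samples and 7.92 ± 2.26 FPKM in vehicle samples.

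By implied length, the genes most like Syk were mostly long and those most like Card9 short. Likeness was Pearson's r of log2(FPKM + 1) over the 11 samples after group means were removed, ranked over all genes tested, so it is given as a description. For Syk the 5 highest were Atp11b (r = 0.99), Etv6 (0.98), Chd7 (0.98), Pstpip2 (0.98) and Camk1d (0.97), at percentiles 74.0, 76.4, 94.1, 47.0 and 89.9 of implied length. For Card9 they were Tmem176b (r = 0.96), Slc25a45 (0.96), Tmem191c (0.96), Pmm2 (0.95) and Slfn1 (0.95), at percentiles 11.8, 23.8, 11.9, 22.6 and 20.7.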

How the data were processed

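RNA of MC38 tumor blocks was sequenced from stranded poly(A) libraries (Illumina kit, per the labels' protocols). The authors deposited a single table. It holds FPKM for each library in columns whose header says only expression, a unit inferred from how the values behave. Trimmomatic, HISAT2, Cufflinks, HTSeq, DESeq and the build GRCm39 are named, without versions, per the submitters' processing notes. Base means in the deposited table are a signal, counts divided by size factors, from DESeq2 per the file headers. The authors' fold change is a linear ratio of BG136 over vehicle, deposited beside its log2 value, p-value and q-value.

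Scaling each gene's FPKM to its deposited base mean gave reads, with 100% of values whole to within 0.1; these give depth and, beside FPKM, an implied length on a relative scale. Tests ran on log2(FPKM + 1), which understates fold changes of low genes, with limma 3.58.1 (R 4.3.3, trend). Correlations and exact tests used numpy and scipy 1.17.1. The recovery of reads and the fit were tested on simulated data. No label ties samples to separate animals, so the p-values cover only the spread between these samples, which may be technical. The alternatives tried are listed in the closing section. Members and lists were chosen with earlier results of these data known. All 9 members and Clec7a were named whatever their values, paralogs by their level, up to 3 tested genes of lowest p in each other list, and the 5 genes most like Syk and Card9; marker lists are given mainly by their sums. Some genes of these lists are not reported here.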

Additional observations from a re-analysis of the deposited data

How the results depend on the processing

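No member and no gene passed under any setting tried: pseudocount 0.1, no filter on low values, all 12 libraries counted separately, voom, array weights, no vehicle replicates 11 and 12, the gene length trend removed (chosen, like all settings for member pairs and the pathway and T cell counts with a setting changed, after seeing the data), each sample left out, and the replicate block. Members with an unadjusted p under 0.05 numbered 0 to 1. Among all genes tested the number was 150 (without vehicle replicate 12) to 474 (no filter on low values). The replicate block over samples numbered 1, 2 and 7 gave a median of 0.047 for the members and 7 of 9 above 0. Same-numbered samples correlated at 0.488, -0.422 and 0.260 in their deviations from group means, so the numbers were not taken to pair them. Over all settings 7 to 9 members were above 0, with a median of 0.047 to 0.19. The share of all genes above 0 was 57.4% as first fitted. It was 55.0% without vehicle replicates 11 and 12 and 48.3% with the length trend removed. Of 912 log2 differences of named genes 22 turned sign, and the cause was not tested. With the block Syk was at -0.015, Nfatc1 -0.017, Cbl -0.048, Cd2 0.15, Cd3g 0.31 and Cd5 0.10. Without vehicle replicates 11 and 12 Syk was at -0.053, Nfatc1 -0.077, Cbl -0.053, Csf3r -0.0033 and Itgam -0.0069. With a sample left out the range was -0.0033 to 0.13 for Nfatc1 (lowest without vehicle replicate 11), -0.017 to 0.31 for Cxcl1 (lowest without BG136 replicate 2) and -0.30 to 0.0051 for Mmp9 (highest without BG136 replicate 2). It was -0.35 to 0.069 for Cd2, -0.45 to 0.069 for Cd3g, -0.25 to 0.084 for Cd5 and -0.46 to 0.0019 for Ctsk, each highest without BG136 replicate 6. Array weights gave Cd5 0.032 and Cxcl1 -0.15, and removing the length trend gave Nfatc1 -0.023 and Src -0.012. Relations with marker scores that passed numbered 0, against 2 with all 12 libraries, 1 with group means subtracted, 3 with the length trend removed and 0 to 1 with a sample left out. Member pairs that passed numbered 4, against 2 without vehicle replicates 11 and 12, 1 with the length trend removed and, with a sample left out, 1 (without vehicle replicate 2) to 8 (without BG136 replicate 2). By Pearson's r, Syk with Nfatc1 passed in all of these settings, and Card9 with Vav1 in all but those without vehicle replicate 2 (adjusted permutation p = 0.0516) and with the length trend removed. Card9, at 169 reads in its shallowest library, is the member whose values depth limits most.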

Other observations

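The spread within groups differed between members. The coefficient of variation of Malt1 was 7.31% in BG136 samples and 26.1% in vehicle samples, and that of Syk was 12.6% in BG136 samples and 23.8% in vehicle samples. Vehicle replicates 11 and 12 were lowest for both, at 3.12 and 4.59 FPKM for Malt1 and 2.87 and 3.58 FPKM for Syk. The other 4 vehicle samples lay at 5.26 to 7.19 FPKM for Malt1 and 4.92 to 5.60 FPKM for Syk. For Prkcd the coefficient of variation was 19.2% in BG136 samples and 8.39% in vehicle samples, with BG136 replicate 2 at 53.2 FPKM. For Src it was 4.35% in BG136 samples and 4.62% in vehicle samples, the lowest of the 9 members in each group. The difference in spread between groups was not tested.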
